A study of Medicago ruthenica with 3 samples.

Results

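Membrane transporters and mitochondrial carriers were followed in a degradome table of Medicago ruthenica leaves, a perennial forage legume that withstands drought. A transcript was counted as a member where its annotation contained transporter, antiporter, symporter, permease, aquaporin, proton pump, potassium channel or uncoupling protein, in upper or lower case, or where its gene symbol was PUMP5 or At3g47420. SUC2, a phloem sucrose carrier, was left out. This gave 135 of the 6912 transcripts in the table. By the words of their annotation, 36 were ABC transporters, 20 organelle carriers, 19 nitrogen transporters, 12 sugar and polyol transporters, 37 ion transporters, 1 an aquaporin and 10 others.

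The leaves came from pot-grown plants of 1 species that shared pots and were treated from 4 weeks of age, and each condition was 1 library. Rewatered plants (RW) went without water for 15 days and were then watered and sampled 2 days later. Drought plants (DS) went without water for 15 days, with a relative soil moisture of 20%, and control plants (CK) were watered throughout, at a moisture above 80%. Leaves of DS and CK were taken on day 15, and those of RW 2 days after rewatering. Sampling day and rewatering therefore cannot be told apart in the comparisons of RW with DS or CK. All plants came from the same seed source and were given no nutrients. The study's design states 3 biological replicates, but the table has 1 column per condition, and whether their RNA was pooled is not given in the sources used here. No difference below therefore has a replicate check, and each test compares 2 libraries and not 2 conditions.

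Membrane transport proteins move ions, nutrients, sugars and metabolites across the plasma membrane and the membranes of the vacuole, plastid and mitochondrion. Proton pumps build the gradient that many carriers use, ABC transporters are driven by ATP, and mitochondrial carriers link metabolism in the cytosol with respiration. In leaves under drought, such proteins are known for their roles in osmotic adjustment, stomatal movement, nutrient recycling and the loading of sugar into the phloem.

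Degradome sequencing reads the 5′ ends of uncapped polyadenylated RNA, which arise when a small RNA guides a cut but also when RNA decays. A value therefore depends on how much of a transcript there was and on how often it was cut, and these cannot be told apart here. In whole leaves, fewer cells of a type and less RNA per cell cannot be told apart either. Values are reads, or RPM (reads per 1000000 of the reads listed in the table), summed over all small RNAs with which a transcript was listed. The table gives no positions here, so 1 read may stand under more than 1 small RNA and be counted each time, and no listed small RNA is shown to have made the cut. Transcript lengths were not used, so levels are compared between libraries and never between genes.

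The table held 29617 reads in RW, 32719 in DS and 24790 in CK, so that 1 read was worth 33.8 RPM in RW, 30.6 in DS and 40.3 in CK. Leaf markers were present in each library. Summed over Rubisco, the enzyme that fixes carbon dioxide, there were 778 reads in RW, 1713 in DS and 665 in CK, and over chlorophyll a-b binding proteins 167, 96 and 223. SEOB, a marker of phloem sieve elements, had 24 reads in RW, 16 in DS and 239 in CK, while SUC2, the other phloem marker, had 1 read in RW, 7 in DS and 3 in CK. Their part in the differences below was not tested.

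Transport transcripts took a larger part of the table in DS than in the other libraries. Members held 349 reads in RW, 591 in DS and 291 in CK. As shares of each table these were 1.18% in RW (exact 95% binomial interval 1.06 to 1.31), 1.81% in DS (1.66 to 1.96) and 1.17% in CK (1.04 to 1.32). The summed RPM of all members was 1.54 times as high in DS as in CK (exact 95% interval 1.33 to 1.78), 0.652 times as high in RW as in DS (0.570 to 0.746) and 1.0 times as high in RW as in CK (0.857 to 1.18). Without PUMP5 the ratios were 1.11 (0.949 to 1.30), 0.831 (0.714 to 0.967) and 0.922 (0.781 to 1.09), so that with table totals only RW against DS still had an interval that left out 1. With mapped reads as the scaling, chosen for this sum after seeing the data, they were 1.61 (1.38 to 1.88), 0.882 (0.757 to 1.03) and 1.42 (1.20 to 1.68). With the number of mapped reads as the scaling in place of the table totals, every ratio in DS over CK is 1.45 times and every ratio in RW over CK 1.54 times as large, and those in RW over DS 1.06 times. The intervals cover counting error only, since the reads carry no molecular identifiers.

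Most members were shallow. The median member had 3 reads over the 3 libraries, as did the median transcript of the whole table, and 34 members (25.2%, against 28.7% of all transcripts) had a single read. At least 10 reads were found for 20 members, which held 68.6% of the 1231 member reads. In all, 88 members were listed in RW, 86 in DS and 68 in CK, and 35 (25.9%, against 26.8% of all transcripts) in each of the 3. The 115 members below 10 reads together had 143 reads in RW, 146 in DS and 97 in CK. Their summed RPM stood at 1.14 in DS over CK (0.876 to 1.49), at 1.08 in RW over DS (0.853 to 1.37) and at 1.23 in RW over CK (0.947 to 1.61), and each interval included 1.

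PUMP5 (TRINITY_DN21990_c1_g1), annotated as mitochondrial uncoupling protein 5, was the member with the most reads. In Arabidopsis the protein of this name belongs to the mitochondrial carrier family and moves dicarboxylates across the inner membrane. It had 45 reads in RW, 187 in DS and 15 in CK, or 1519, 5715 and 605 RPM. The DS library stood far above both others, and RW lay between DS and CK. The level was 9.45 times as high in DS as in CK (5.58 to 17.2, adjusted p = 1.8e-27, exact binomial test). It was 0.266 times as high in RW as in DS (0.188 to 0.370, adjusted p = 7.1e-17, exact binomial test) and 2.51 times as high in RW as in CK (1.37 to 4.85, adjusted p = 0.0189, exact binomial test). With the highest entry of each library in place of the sum over entries, RW over CK was 1.91 and no longer passed (adjusted p = 0.562, exact binomial test). That ratio sets 16 reads with mtr-miR167a in RW against 7 with gma-miR171c-5p in CK, so it does not follow 1 entry. PUMP5 made up 12.9% of member reads in RW, 31.6% in DS and 5.15% in CK. The primers with which the study measured this transcript by quantitative PCR are the only sequences of the member that the sources hold, and they are given to identify it, 5′ to 3′ and with no base marked. Where they lie on the transcript was not examined.
PUMP5 forward primer: ggttttgttgaaggtggtat
PUMP5 reverse primer: gctgaggaaccggagtagac

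PUMP5 was highest in DS under each of the 5 small RNAs with which it was listed. The entry with mtr-miR167a had 16 reads in RW, 71 in DS and 3 in CK, and that with gma-miR171c-5p had 14, 46 and 7. The entry with nta-miR482a_R-3_1ss19CT had 8 reads in RW, 29 in DS and 3 in CK, that with mtr-MIR2678-p5_1 had 5, 24 and 2, and that with mtr-MIR2619b-p5_1ss5GT had 2, 17 and 0. In DS over CK the interval lay above 1 for 5 of the 5 entries, and in RW over DS it lay below 1 for 5 of 5. In RW over CK it lay above 1 only for the entry with mtr-miR167a (4.46, 1.28 to 23.9). These small RNAs carry names of different families. The entries are not independent of each other, since they may hold the same reads.

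**Figure D1:**
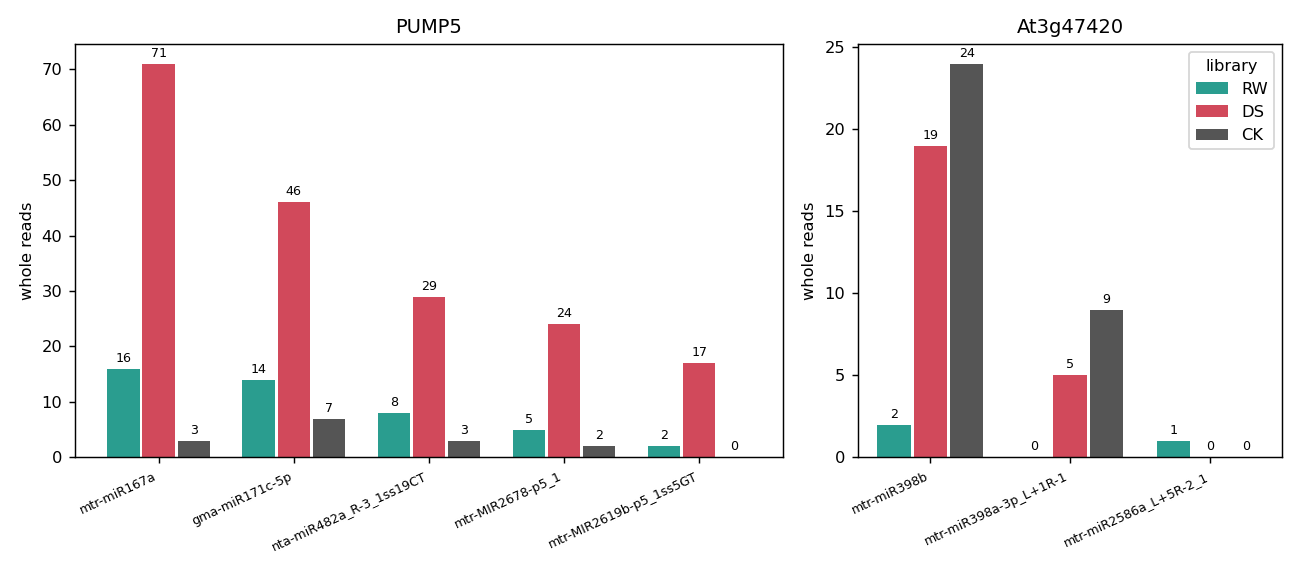
Whole reads (y axis) of PUMP5 and At3g47420 under each small RNA with which they were listed (x axis), with bars for RW, DS and CK and the read count above each bar. All 5 PUMP5 entries are highest in DS, up to 71 reads with mtr-miR167a, while mtr-miR398b and mtr-miR398a-3p_L+1R-1 on At3g47420 are highest in CK, with 24 and 9 reads.

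At3g47420 (TRINITY_DN18921_c1_g1) is annotated as putative glycerol-3-phosphate transporter 1 and belongs to a family of carriers of organic phosphates. It had 3 reads in RW, 24 in DS and 33 in CK, or 101, 734 and 1331 RPM, so that RW stood far below both other libraries. In RW it was at 0.138 of the DS level (0.0266 to 0.455, adjusted p = 0.0017, exact binomial test) and at 0.0761 of the CK level (0.0149 to 0.243, adjusted p = 3.7e-07, exact binomial test). DS against CK did not pass the test (0.551, 0.312 to 0.961, adjusted p = 0.11, exact binomial test). The entry with mtr-miR398b had 2 reads in RW, 19 in DS and 24 in CK, and that with mtr-miR398a-3p_L+1R-1, of the same family by name, had 0, 5 and 9. In plants miR398 is known for its targets among copper proteins. The entry with mtr-miR2586a_L+5R-2_1 held 1 read, in RW.

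**Figure D2:**
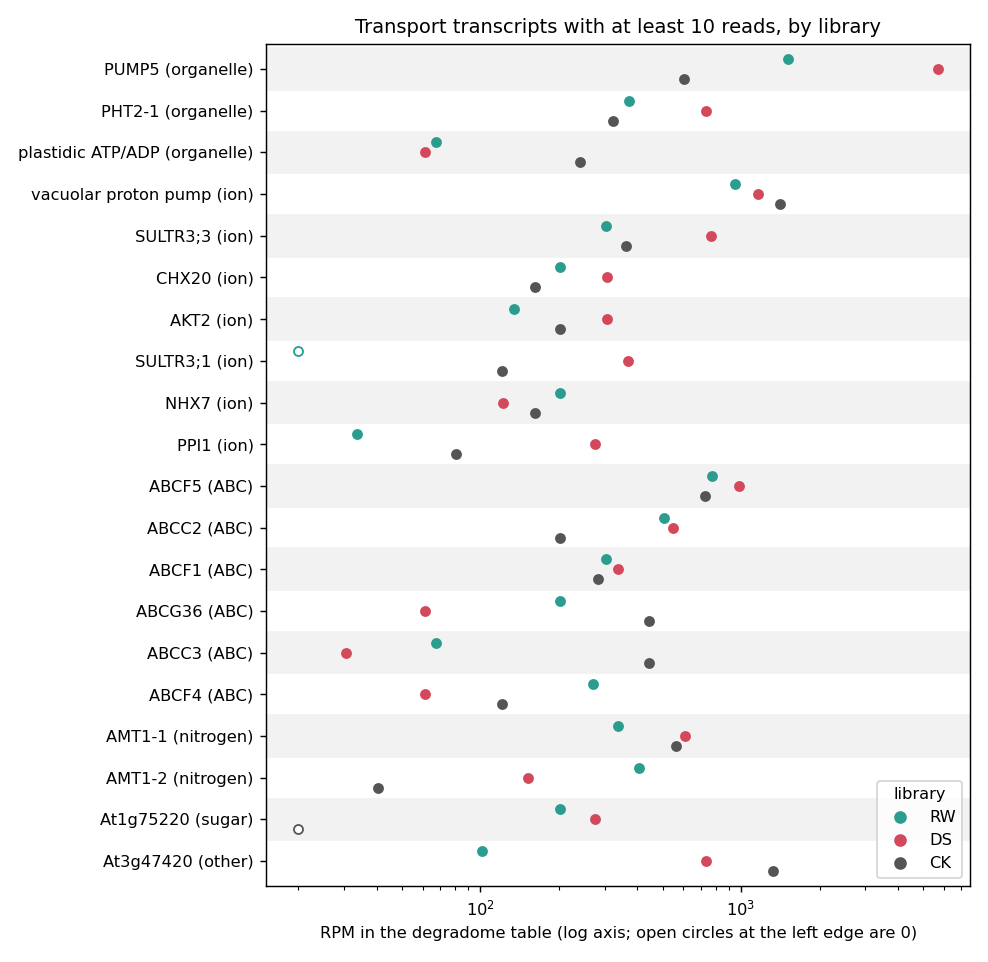
RPM in the degradome table (x axis, log scale) of the 20 members with at least 10 reads over the 3 libraries (rows, with the class in brackets), with points for RW, DS and CK and open circles at the left edge for 0. DS is the highest library for 12 of the 20 members, CK for 5 and RW for 3, and rows are not to be compared with each other because transcript lengths were not used.

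In the comparison of drought with watered leaves (DS vs CK), 15 members had the 10 reads over both libraries that the test required. PUMP5 was the 1 member that was higher in DS, where 11.0% of all 928 transcripts tested were higher. ABCG36 and ABCC3 were the 2 members lower in DS, where 9.16% of all transcripts tested were lower. By size alone, 6 members were at least 2-fold higher in DS (27.8% of all transcripts tested) and 2 at least 2-fold lower (19.6%). The median log2 ratio of the tested members, with 1 read added on each side, was 0.47, against 0.09 for all transcripts, and 11 of 15 lay above 0 (53.1% of all). Before adjustment 5 of the 15 members had p under 0.05 by the exact binomial test. The share of all transcripts at this unadjusted threshold was not taken, so the count is no result about the members. With mapped reads as the scaling, or with none, 4 members were higher (PHT2-1, SULTR3;3 and ABCC2 beside PUMP5) and 1, ABCC3, was lower. Over all transcripts the split then moved to 232 higher and 54 lower with mapped reads, against 102 and 85 with table totals.

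In the comparison of rewatered with drought leaves (RW vs DS), 17 members were tested. No member was higher in RW by the exact binomial test, where 9.95% of all 1045 transcripts tested were higher. The 3 lower members were PUMP5, At3g47420 and SULTR3;1, where 8.42% of all transcripts were lower. At least 2-fold differences were seen for 2 higher (21.5% of all) and 6 lower members (20.3% of all). The median log2 ratio was -0.51, against 0.07 for all transcripts, and 3 of 17 members lay above 0 (51.6% of all). Unadjusted p was under 0.05 for 5 members in either direction by the exact binomial test, again without a share of all transcripts to set beside it.

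In the comparison of rewatered with watered leaves (RW vs CK), 15 members were tested. PUMP5 and AMT1-2 were the 2 members higher in RW, where 7.05% of all 893 transcripts tested were higher. At3g47420 was the 1 lower member, where 6.27% of all transcripts were lower. At least 2-fold differences were seen for 4 higher (19.9% of all) and 3 lower members (14.1% of all). The median log2 ratio was 0.08, against 0.11 for all transcripts, and 9 of 15 members lay above 0 (53.9% of all). With mapped reads as the scaling ABCC2 was higher as well, and over all transcripts 204 were higher and 22 lower, against 63 and 56 with table totals. The 3 comparisons share libraries, each library standing in 2 of them, so a low or high value in 1 library moves 2 comparisons together. With an assumed variation of 0.4 between plants of 1 condition in place of counting error alone, the edgeR exact test called no member in any comparison, and of all transcripts 2 in DS vs CK, 6 in RW vs DS and 1 in RW vs CK. For PUMP5 in DS vs CK the adjusted p was then 0.0814 (edgeR).

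**Figure D3:**
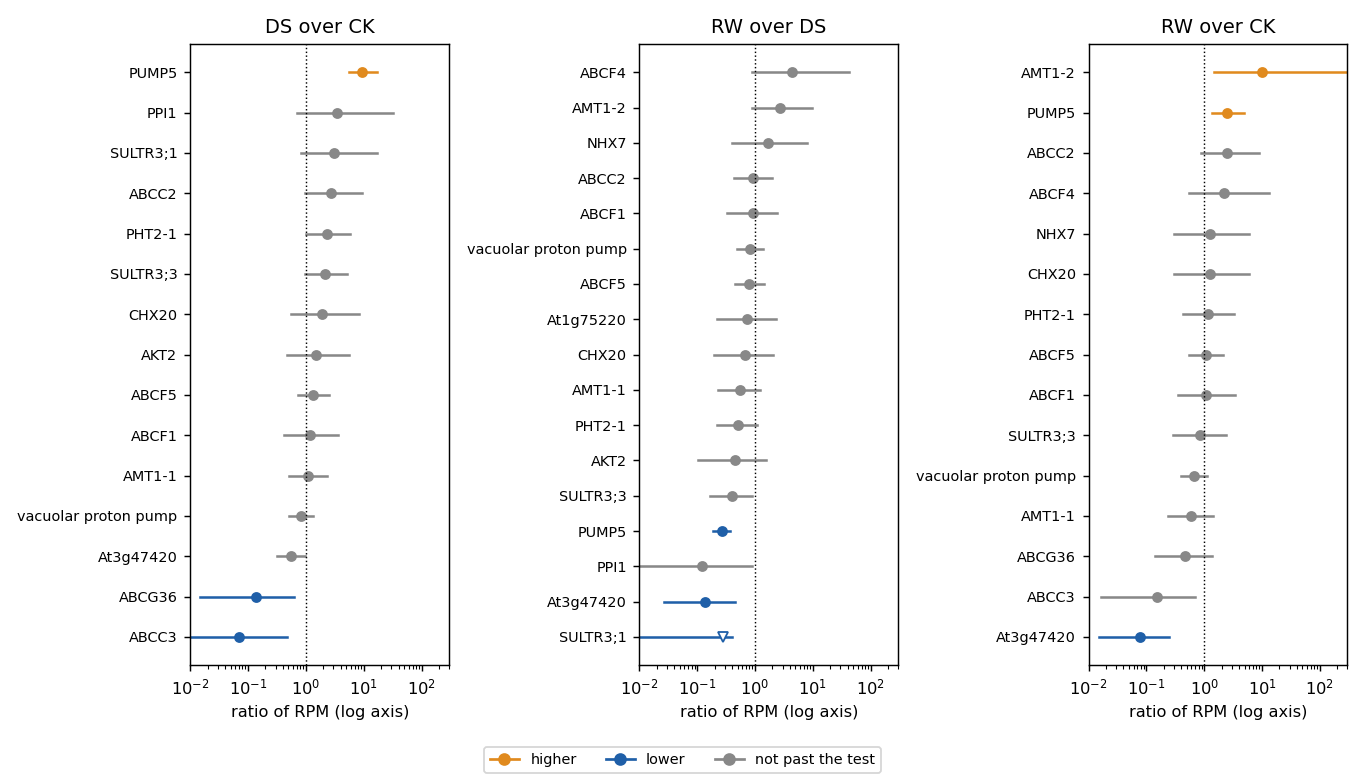
Ratio of RPM (x axis, log scale) with its exact 95% interval for each tested member in DS over CK, RW over DS and RW over CK, coloured by the exact binomial test, with the ratio of SULTR3;1 in RW over DS drawn as an open triangle against a floor of 3 reads and intervals clipped at the edges of the axis. PUMP5 lies above 1 in DS over CK (9.45) and RW over CK (2.51) and below 1 in RW over DS (0.266), and most other intervals include 1.

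Among the organelle carriers, PUMP5 carried the class. The 20 members together had 74 reads in RW, 235 in DS and 39 in CK, a ratio of 4.57 in DS over CK (3.24 to 6.58), 0.348 in RW over DS (0.264 to 0.454) and 1.59 in RW over CK (1.06 to 2.40). Without PUMP5 they had 29, 48 and 24 reads. The ratios were then 1.52 (0.910 to 2.59), 0.667 (0.406 to 1.08) and 1.01 (0.569 to 1.82), and each interval included 1. PHT2-1, in Arabidopsis a phosphate transporter of the chloroplast envelope, had 11 reads in RW, 24 in DS and 8 in CK, all listed with nta-miR482a_R-3_1ss19CT. DS was the highest of the 3 libraries, but no comparison passed the test (DS over CK 2.27, 0.988 to 5.85, adjusted p = 0.155, exact binomial test). A plastidic ATP/ADP transporter (TRINITY_DN13787_c3_g1), which brings ATP into plastids, had 2 reads in RW, 2 in DS and 6 in CK and was too shallow to test. The other 17 carriers had at most 9 reads, among them ADNT1, a mitochondrial adenine nucleotide carrier, with 0 in RW, 6 in DS and 3 in CK. Of the plastid metabolite carriers, BASS2, which in Arabidopsis takes pyruvate into chloroplasts, had 0, 3 and 0 reads. BASS3 had 0 in RW, 4 in DS and 0 in CK, while BASS4 ran the other way with 2, 0 and 0.

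Ion transporters had a larger sum in DS than in RW. The 37 members had 91 reads in RW, 141 in DS and 82 in CK. Their sum stood at 0.713 in RW over DS (0.542 to 0.935), or 0.789 (0.573 to 1.08) without the entries of ppe-MIR169i-p5_2ss17GT19TG described below. In RW over CK it stood at 0.929 (0.682 to 1.27), which turned to 1.43 (1.05 to 1.95) with mapped reads as the scaling and to 1.11 (0.814 to 1.51) without scaling. In DS over CK it was 1.30 (0.985 to 1.73), and 1.66 (1.17 to 2.40) without the vacuolar proton pump, the member with the most reads. That pump (TRINITY_DN25184_c0_g1) uses pyrophosphate to drive protons into the vacuole, and it had 28 reads in RW, 38 in DS and 35 in CK. Its interval included 1 in DS over CK (0.823, 0.506 to 1.34), RW over DS (0.814, 0.481 to 1.36) and RW over CK (0.670, 0.392 to 1.13). All 38 of its reads in DS, 22 of those in RW and 34 of those in CK were listed with mtr-MIR2676d-p5_1ss12GT.

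Of the sulfate transporters, SULTR3;1 was lower in RW than in DS. It belongs to a group of carriers that in Arabidopsis take sulfate into chloroplasts, and it had 0 reads in RW, 12 in DS and 3 in CK. Against a floor of 3 reads in RW it was at least 3.62-fold lower in RW than in DS (adjusted p = 0.0058, exact binomial test). That floor is no confidence limit, and the exact 95% interval of the ratio ran from 0 to 0.398. DS over CK did not pass the test (3.03, 0.818 to 16.7, adjusted p = 0.267, exact binomial test). SULTR3;3, of the same group, had 9 reads in RW, 25 in DS and 9 in CK. DS was again the highest, but neither DS over CK (2.10, 0.950 to 5.12, adjusted p = 0.17, exact binomial test) nor RW over DS (0.398, 0.163 to 0.881, adjusted p = 0.0702, exact binomial test) passed. Both rest largely on 1 small RNA, ppe-MIR169i-p5_2ss17GT19TG, which held 11 of the 12 DS reads of SULTR3;1 and 24 of the 25 of SULTR3;3. That small RNA had 2647 of the 11390 entries in the table, and without its entries SULTR3;1 had too few reads to test.

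Of the potassium and cation transporters, none passed the test in any comparison. CHX20, a cation/proton antiporter that in Arabidopsis acts in guard cells, had 6 reads in RW, 10 in DS and 4 in CK. AKT2, a potassium channel of the phloem, had 4 reads in RW, 10 in DS and 5 in CK (DS over CK 1.52, 0.472 to 5.65). NHX7, whose symbol in Arabidopsis is that of a sodium/proton antiporter of the plasma membrane, had 6, 4 and 4 reads. PPI1, a proton pump interactor that binds a pump and is not itself a transporter, had 1 read in RW, 9 in DS and 2 in CK (TRINITY_DN25447_c0_g1). Another PPI1 transcript (TRINITY_DN25447_c0_g2) ran the other way, with 6 reads in RW, 0 in DS and 2 in CK. Of the 37 ion members, 12 were listed only in RW, 4 only in DS and 0 only in CK, against 19.9%, 17.03% and 11.9% of all transcripts. The 12 had at most 2 reads each.

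Of the 5 ABC transporters tested in DS vs CK, 2 were lower in DS and 0 were higher (9.16% and 11.0% of all transcripts tested). The 36 members together had 112 reads in RW, 103 in DS and 96 in CK, or 0.813 in DS over CK (0.610 to 1.08), 1.20 in RW over DS (0.911 to 1.59) and 0.977 in RW over CK (0.737 to 1.30). With mapped reads as the scaling DS over CK turned to 1.18 (0.885 to 1.57) and RW over CK to 1.50 (1.13 to 2.00). Without ABCF5, the member with the most reads, DS over CK was 0.690 (0.493 to 0.964) and RW over DS 1.38 (1.0 to 1.92). The soluble and organelle types (ABCF, ABCI and ABC1, 9 members), several of which span no membrane, had 52 reads in RW, 53 in DS and 33 in CK. In DS over CK they stood at 1.22 (0.773 to 1.94). The other 27 ABC members, most of them full membrane transporters, had 60 reads in RW, 50 in DS and 63 in CK, and stood at 0.601 in DS over CK (0.406 to 0.886), or 0.873 (0.590 to 1.29) with mapped reads. Of the 63 reads in CK, ABCG36 and ABCC3 held 11 each, with 2 and 1 in DS. ABCC2, the remaining 1 of the 3 tested in DS vs CK, ran the other way with 18 in DS and 5 in CK. The sum without ABCG36 and ABCC3 was not taken, so it is no result about the group.

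ABCG36 and ABCC3 were the ABC transporters that were lower in DS than in CK. ABCG36, in Arabidopsis an exporter of the plasma membrane known from defence against microbes, had 6 reads in RW, 2 in DS and 11 in CK (TRINITY_DN26040_c0_g1). DS was at 0.138 of CK (0.0148 to 0.631, adjusted p = 0.0217, exact binomial test). ABCC3, of a subfamily that moves conjugates into the vacuole, had 2 reads in RW, 1 in DS and 11 in CK (TRINITY_DN26253_c0_g1). DS was at 0.0689 of CK (0.0016 to 0.474, adjusted p = 0.00596, exact binomial test), and RW over CK did not pass (0.152, 0.0164 to 0.697, adjusted p = 0.0603, exact binomial test). Other ABCC3 transcripts had 2, 4 and 1 reads in RW, DS and CK (TRINITY_DN26425_c6_g2) and 2, 0 and 1 (TRINITY_DN19147_c0_g1). Another ABCG36 transcript (TRINITY_DN18081_c0_g1) had 0, 1 and 3 reads. Of the phloem markers, SEOB had 16 reads in DS against 239 in CK, and SUC2 had 7 in DS against 3 in CK. ABCG36 did not pass with mapped reads as the scaling (0.200, adjusted p = 0.0698, exact binomial test) or without scaling (0.182, adjusted p = 0.0770, exact binomial test), while ABCC3 passed under both.

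The 12 members with an ABCC symbol had 25 reads in RW, 24 in DS and 36 in CK. ABCC14 (TRINITY_DN25693_c1_g1), outside the member rule, had 0, 10 and 1 reads and is not in these sums. The 12 members stood at 0.505 in DS over CK (0.288 to 0.870) and at 0.581 in RW over CK (0.334 to 0.995). With mapped reads as the scaling both intervals included 1 (0.733, 0.418 to 1.26, and 0.895, 0.515 to 1.53). The called ABCC3 transcript (TRINITY_DN26253_c0_g1) held 11 of the 36 reads in CK, with 2 in RW and 1 in DS, and the sum without it was not taken. Of the 12, 1 was listed only in RW, 0 only in DS and 6 only in CK, against 19.9%, 17.03% and 11.9% of all transcripts. The 6 found only in CK were shallow, with 1 to 5 reads each. An ABCC2 transcript (TRINITY_DN26410_c2_g1), by name a vacuolar carrier of conjugates in Arabidopsis, ran the other way with 15 reads in RW, 18 in DS and 5 in CK. It did not pass the test in DS over CK (2.73, 0.976 to 9.40, adjusted p = 0.167, exact binomial test) or RW over CK (2.51, 0.868 to 8.83, adjusted p = 0.273, exact binomial test). Another ABCC2 transcript (TRINITY_DN12020_c0_g1) had 0 reads in RW, 0 in DS and 5 in CK. ABCF5 had 23 reads in RW, 32 in DS and 18 in CK, and ABCF1 (TRINITY_DN24880_c0_g1) had 9, 11 and 7. Both belong to a subfamily that spans no membrane and is known from translation, and for both every interval included 1. ABCF4 (TRINITY_DN21174_c1_g1) of the same subfamily had 8 reads in RW, 2 in DS and 3 in CK and passed no test.

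The nitrogen transporters included the 1 member other than PUMP5 that was higher in RW than in CK. AMT1-2, an ammonium transporter, had 12 reads in RW, 5 in DS and 1 in CK, so that RW was the highest library and CK the lowest. It was 10.0 times as high in RW as in CK, with a wide interval (1.49 to 429, adjusted p = 0.0411, exact binomial test). RW over DS did not pass the test (2.65, 0.869 to 9.61, adjusted p = 0.233, exact binomial test). The call in RW over CK ended with the median of ratios as the scaling (adjusted p = 0.0648, exact binomial test). With a minimum of 5 reads AMT1-2 was tested in RW over CK and not called. With the highest entry of a transcript, or with a minimum of 20 reads, it had too few reads to test. Its reads were spread over 6 small RNAs, with at most 6 reads in a library under any of them. AMT1-1, its close relative, had 10 reads in RW, 20 in DS and 14 in CK and passed no test (RW over CK 0.598, 0.238 to 1.45). The 19 nitrogen members together had 39 reads in RW, 40 in DS and 22 in CK, with intervals that included 1 in DS over CK (1.38, 0.799 to 2.43), RW over DS (1.08, 0.675 to 1.72) and RW over CK (1.48, 0.858 to 2.63). Without AMT1-1 the sum in RW over CK was 3.03 (1.35 to 7.68), on 29 reads against 8. Of these AMT1-2 held 12 of the 29 and 1 of the 8, and the sum without both was not taken. PUP4, a purine permease, had 6, 2 and 1 reads, and the other 16 members had at most 5 each.

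Summed over the class, sugar and polyol transporters were lowest in CK. A single member, At1g54730 (TRINITY_DN24494_c0_g1), was highest in CK, with 1 read in RW, 1 in DS and 3 in CK. No member was deep enough to test in DS vs CK or RW vs CK. The 12 members had 28 reads in RW, 39 in DS and 9 in CK, or 3.28 in DS over CK (1.56 to 7.71), 0.793 in RW over DS (0.470 to 1.32) and 2.60 in RW over CK (1.19 to 6.27). Without At1g75220 the ratios were 2.53 (1.17 to 6.05), 0.810 (0.445 to 1.45) and 2.05 (0.905 to 5.05). At1g75220, annotated as sugar transporter ERD6-like 6 and in Arabidopsis an exporter of glucose from the vacuole, had 6 reads in RW, 9 in DS and 0 in CK. It was deep enough only for RW over DS, where it did not pass (0.736, 0.216 to 2.32). The 5 polyol transporter transcripts named PLT4 and PLT5, grouped after their values had been seen, had 7 reads in RW, 16 in DS and 1 in CK. INT1 and INT2, carriers of inositol, had 5, 1 and 2 and 3, 5 and 1 reads in RW, DS and CK. SWEET12, in Arabidopsis an exporter that hands sucrose to the phloem, had 4, 3 and 2 reads. The sums of the class in DS over CK and RW over CK kept their direction under each scaling tried.

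**Figure D4:**
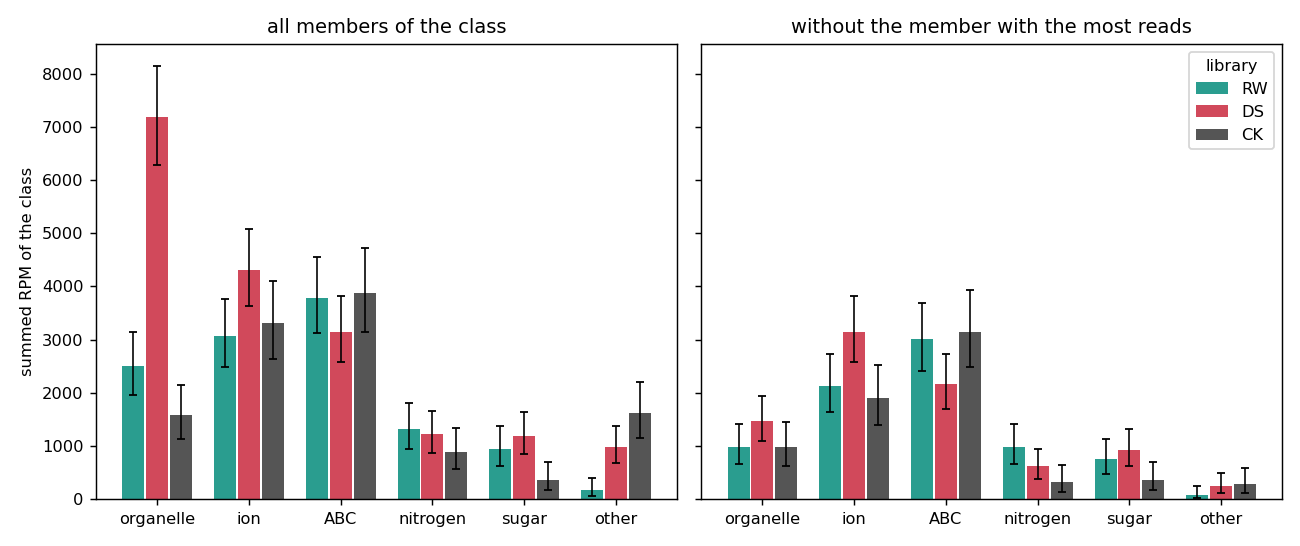
Summed RPM (y axis) of 6 transporter classes in RW, DS and CK, with exact 95% intervals for counting error only as error bars, over all members of a class (left) and without the member with the most reads (right). The organelle carriers in DS stand highest on the left at 7182 RPM and at 1467 RPM on the right, where PUMP5 is left out.

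The aquaporin PIP2-7, a water channel of the plasma membrane, had 0 reads in RW, 1 in DS and 3 in CK, and a further PIP2-7 transcript annotated only as a transporter of the major intrinsic protein family had 0, 1 and 0. No difference in aquaporins was detectable at this depth. The 10 members of the remaining class had 5 reads in RW, 32 in DS and 40 in CK, most of them on At3g47420. Without it they had 2, 8 and 7 reads, and each of the 3 intervals included 1. ALMT12, in Arabidopsis an anion channel of guard cells, had 0 reads in RW, 2 in DS and 0 in CK, and KEA6, a potassium efflux antiporter, had 0, 2 and 1.

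The 217 member entries involved 127 of the 348 small RNAs. The one with the most member entries was ppe-MIR169i-p5_2ss17GT19TG, with 29 entries on 25 members (13.4% of member entries, against 23.2% of the whole table), and 65 reads in RW, 75 in DS and 37 in CK. Next was nta-miR482a_R-3_1ss19CT with 6 entries (2.76%, against 3.56%), among them PUMP5, PHT2-1, ABCC2, AMT1-1 and AMT1-2, and 35 reads in RW, 63 in DS and 13 in CK. No other small RNA was listed with more than 4 members.

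Other transport proteins, outside the member rule, gave 81 transcripts. Their annotations were searched for pumps, channels, exchangers, carriers, translocators and sugar or sucrose transport proteins, so that SUC2 is among them. SUC2 was tested in DS vs CK and did not pass (adjusted p = 0.734, exact binomial test). Of the 81, 4 were tested in DS vs CK, with 0 higher and 1 lower in DS (11.0% and 9.16% of all transcripts tested), and 6 in RW vs DS, with 3 higher and 1 lower in RW (9.95% and 8.42% of all). In RW vs CK, 3 were tested, with 1 higher and 1 lower in RW (7.05% and 6.27% of all). The plasma membrane calcium pump ACA12 had 93 reads in RW, 54 in DS and 119 in CK, and was lower in DS than in CK (0.344, 0.245 to 0.478, adjusted p = 5.6e-10, exact binomial test). It was higher in RW than in DS (1.90, 1.35 to 2.71, adjusted p = 0.00175, exact binomial test) and lower in RW than in CK (0.654, 0.493 to 0.865, adjusted p = 0.0262, exact binomial test). PMA4, a proton pump of the plasma membrane, had 35 reads in RW, 18 in DS and 10 in CK, and was higher in RW than in DS (2.15, 1.18 to 4.03, adjusted p = 0.0482, exact binomial test) and in CK (2.93, 1.42 to 6.63, adjusted p = 0.0178, exact binomial test). CNGC2, a cyclic nucleotide-gated ion channel, was higher in RW than in DS, with 11 reads in RW, 0 in DS and 3 in CK. ABCC14, annotated as a xenobiotic-transporting ATPase, was lower in RW than in DS, with 0, 10 and 1 reads.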

How the data were processed

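The deposited table lists small RNA and transcript pairs from 1 leaf degradome library each of RW, DS and CK, found by the authors against a Trinity assembly of the species. The deposited values are RPM, scaled by the authors to the sum of the table, so each library adds up to 1000000. Dividing by the smallest step gave whole reads for 100% of the values, within 0.01 of a read. A ratio against 0 used a floor of 3 reads, worth 101 RPM in RW, 91.7 in DS and 121 in CK. Deposited columns other than these 3 were used only for names and annotations.

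Reads were summed per transcript. Where a transcript had at least 10 reads over 2 libraries, its split between them was compared with that of the table totals by an exact binomial test, two-sided and conditional on their sum. P-values were adjusted by Benjamini-Hochberg over all such transcripts (threshold 0.05). Ratios have exact conditional 95% intervals, and shares exact Clopper-Pearson intervals. Medians of log2 ratios use a pseudocount of 1 read. Python 3.11.15, scipy 1.17.1, R 4.3.3 and edgeR 4.0.16 were used, and the test was checked on simulated data. Named genes are members called in a comparison, the 4 with the most reads in each class among those with at least 10, PUMP5 and At3g47420. Others with few reads were named after their values were seen. Members and lists were chosen with earlier results of these data known. Alternatives were mapped reads (read from the study's sequencing summary), no scaling and the median of ratios as scaling, the highest entry of a transcript in place of the sum, minimums of 5 and 20 reads, a pseudocount of 0.5, and edgeR's exact test with an assumed biological coefficient of variation of 0.4. The highest entry was taken in each library on its own, so it can belong to different small RNAs in the libraries compared. Small RNA and transcript sequences were not used here.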

Additional observations from a re-analysis of the deposited data

How the results depend on the processing

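No paired analysis was possible because each condition has 1 library. Scaling moved all transcripts. The median log2 ratio of all transcripts was 0.09 in DS vs CK, 0.07 in RW vs DS and 0.11 in RW vs CK with table totals, 0.62, 0.16 and 0.73 with mapped reads, 0.49, -0.07 and 0.36 without scaling, and 0.12, -0.05 and 0.02 with the median of ratios. Relative to it the members stood at 0.39, -0.58 and -0.03 under each. That is fixed by construction, because a change of scaling shifts every log2 ratio alike. Over all transcripts 102 were higher and 85 lower in DS vs CK (232 and 54 with mapped reads, 179 and 54 without scaling), 104 and 88 in RW vs DS (78 and 99 without scaling) and 63 and 56 in RW vs CK (204 and 22, and 89 and 27). With mapped reads and without scaling 4 members were higher in DS vs CK, PHT2-1, SULTR3;3 and ABCC2 beside PUMP5, and 1, ABCC3, was lower. The member medians were 1.01 and 0.87 in DS vs CK and 0.70 and 0.34 in RW vs CK. The sums in DS over CK were 2.00 and 1.82 for nitrogen, 1.89 and 1.72 for ion and 0.880 and 0.800 for the remaining class. In RW over CK they were 1.55 and 1.20 for all members and 2.28 and 1.77 for nitrogen, and with mapped reads ABC (1.50) and ion (1.43) reversed to above 1. With the median of ratios ion stood at 1.33 and the remaining class at 0.621 in DS over CK and organelle carriers at 1.49 in RW over CK, where 1 member was higher and 2, At3g47420 and ABCC3, were lower. No change of scaling removed the calls of PUMP5 or the lower calls of At3g47420.

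With the highest entry, 0 members were higher in RW vs CK, 5 were past 2-fold in RW vs DS and 4 in RW vs CK, and sums were 0.691 for ABC and 0.682 for the remaining class in DS over CK and 1.26 for organelle carriers in RW over CK. With a minimum of 20 reads 0 members were lower in DS vs CK and 1 was higher in RW vs CK, 4, 3 and 3 were past 2-fold in the comparisons of DS with CK, RW with DS and RW with CK, and medians were 0.69, -0.79 and -0.24. With 5 reads 1 was higher in RW vs CK, 23, 20 and 17 were past 2-fold and the median in RW vs DS was -0.30. A larger or smaller minimum changes how many transcripts are tested, and so does the use of the highest entry. In DS vs CK 8 members were tested with the minimum of 20 reads and 36 with that of 5. Shares of all transcripts past 2-fold were taken only for the main processing, so the 2-fold counts given here are no result about the members. With edgeR and a variation of 0.4 the counts were 0 higher and 0 lower in each comparison, and this variation is assumed, not measured. Without the member with the most reads, sums in DS over CK were 0.690 for ABC, 1.52 for organelle carriers, 1.66 for ion and 0.866 for the remaining class, in RW over DS 1.38, 0.667 and 0.276 for ABC, organelle carriers and the remaining class, and in RW over CK 1.01, 3.03, 2.05 and 0.239 for organelle carriers, nitrogen, sugar and the remaining class. The alternatives that follow were chosen after seeing the data. Without PUMP5 all members stood at 1.11 in DS over CK, or 1.14 with the median of ratios and 1.46 unscaled. Without ppe-MIR169i entries the median in DS vs CK was 0.23, where the remaining class stood at 0.634, and in RW vs DS 5 members were past 2-fold and ion stood at 0.789. Apart from these alternatives' own construction, the cause of the changes was not tested. Depth limits most members, since 115 of 135 had fewer than 10 reads.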
